A study of Homo sapiens with 6 samples.

Results

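Genes of blood coagulation and plasminogen activation were followed. The 10 genes F3, TFPI, TFPI2, THBD, PLAU, PLAUR, PLAT, SERPINB2, F2R and F2RL1 were taken by symbol from a table of 28395 genes, and all 10 were found in it. The table holds RNA-seq of HCC827, a human lung adenocarcinoma line with an activating EGFR deletion, after 24 h with the vehicle DMSO (3 libraries, numbered 1 to 3) or with 1 μM of the EGFR kinase inhibitor erlotinib (3 libraries, numbered 4 to 6). The comparison asks what blocking EGFR changes in the RNA of a cell that depends on it. The study's methods say in general that experiments were repeated independently, but no label ties these libraries to separate cultures, so the p-values measure only the spread between them, which may be technical. All cells are of 1 line in culture, without endothelium or platelets.

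Blood clotting starts when tissue factor, a membrane protein encoded by F3, meets factor VII of the plasma. Tissue factor pathway inhibitor (TFPI) and its relative TFPI2 block serine proteases of this step, and thrombomodulin (THBD) turns thrombin toward the activation of protein C, an anticoagulant. Clots and extracellular matrix are removed by plasmin, which urokinase (PLAU) and tissue plasminogen activator (PLAT) cut from plasminogen. Urokinase acts at the cell surface on its receptor (PLAUR) and is inhibited by serpins such as SERPINB2. Thrombin and other serine proteases signal to cells by cutting the protease-activated receptors F2R (PAR1) and F2RL1 (PAR2). Carcinoma cells are known to make many of these proteins themselves.

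Values are signal, the reads of a gene divided by the size factor of the library. The libraries held 20858083, 24641819 and 21172884 reads on genes with DMSO and 21944007, 20760204 and 21678395 with erlotinib. As a check of the drug, DUSP6, a phosphatase gene switched on by ERK signalling, had signals of 1387, 1418 and 1368 with DMSO and 67.4, 63.4 and 73.9 with erlotinib. PHLDA1, an early-response gene of growth factor signalling, had 10784, 11383 and 11315 with DMSO and 3237, 3136 and 2955 with erlotinib. EGFR, the target of the drug, had 77915, 82437 and 78583 with DMSO and 42831, 43954 and 49830 with erlotinib. All 3 genes were lower in every erlotinib library.

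Of the 10 genes, 9 had a mean signal of at least 10 and were tested, and SERPINB2 did not. At an adjusted p under 0.05 (limma over 14215 genes, Benjamini-Hochberg), F3, THBD, PLAUR, F2R and F2RL1 were lower with erlotinib, TFPI and TFPI2 were higher, and PLAU and PLAT were neither. For the same 7 genes the DMSO and erlotinib libraries did not overlap. Among all tested genes, 35.4% (5031) were lower and 35.3% (5012) higher by this test, 70.7% in either direction. With libraries scaled to their total count, 3955 genes were lower and 6156 higher. Groups that did not overlap were found for 36.9% of all tested genes on the lower side and 36.7% on the higher side, 73.6% in all. Calls of this kind were thus common in the whole table. In bulk RNA, fewer cells that express a gene and less RNA of it per cell cannot be told apart. F3 and THBD fell by at least 1 log2 unit, which 10.8% of all tested genes did.

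**Figure D1:**
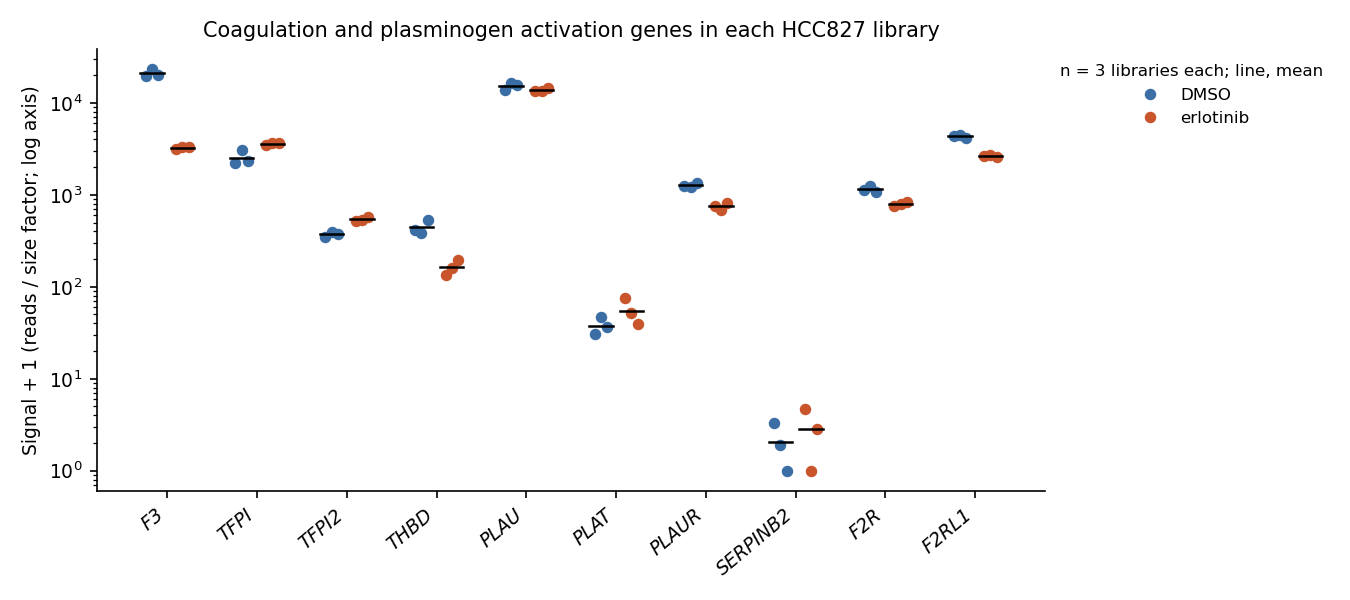
Signal + 1 of the 10 genes on a log axis, with 1 point for each of the 3 DMSO (blue) and 3 erlotinib (orange) libraries and a line at the mean. F3 sits between 19786 and 23158 with DMSO and between 3146 and 3303 with erlotinib, PLAU overlaps between the groups, and SERPINB2 lies at the bottom of the axis in both.

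F3 (Entrez gene 2152, chromosome 1, 94529173 to 94541759 of GRCh38) was the most changed of the 10. Its signal was 19786, 23158 and 20313 in the DMSO libraries and 3146, 3303 and 3299 in the erlotinib libraries. The erlotinib libraries lay close together and far under every DMSO library, at 15.4% of the DMSO mean. On the log2 scale F3 fell by 2.69 (95% interval -2.84 to -2.55, adjusted p = 1.0e-17, limma). Counted from the largest fall, F3 had rank 137 of the 14215 tested genes.

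The DNA just before the start of F3 is shown because regulation of this gene by growth factors is classically traced to sites for AP-1 and EGR factors there. The 250 bases before the RefSeq start of F3 (GRCh38.p14, chr1:94541760-94542009, minus strand) are printed 5′ to 3′, with matches to the AP-1 letters TGANTCA in capitals.
F3: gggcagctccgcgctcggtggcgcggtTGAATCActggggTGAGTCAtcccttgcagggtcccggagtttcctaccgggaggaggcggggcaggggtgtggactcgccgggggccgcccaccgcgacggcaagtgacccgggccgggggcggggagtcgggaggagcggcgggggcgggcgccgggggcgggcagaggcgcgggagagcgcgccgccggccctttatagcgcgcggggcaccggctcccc
The AP-1 letters occur at -223 to -217 and at -210 to -204, counted back from the start. The EGR letters GCGGGGGCG occur at -82 to -74 and overlap a match to the SP1 letters GGGCGG at -78 to -73.

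Among the 10 genes, 7 have such a window in the RefSeq-based table, PLAU with 2 starts, and THBD, PLAT and F2R have none. Of these 8 windows, 4 hold the AP-1 letters, against 6.57% of the 35116 windows of all genes. They belong to F3 and PLAUR, which were lower with erlotinib, TFPI2, which was higher, and SERPINB2, which had almost no reads. The 40 bases around the single match of each of the other 3 genes are given with the match in capitals, from GRCh38.p14 at chr19:43670332-43670371 (minus strand), chr7:93890817-93890856 (minus strand) and chr18:63887587-63887626 (plus strand).
PLAUR: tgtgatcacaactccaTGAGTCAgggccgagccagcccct
TFPI2: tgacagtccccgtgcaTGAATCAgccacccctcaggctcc
SERPINB2: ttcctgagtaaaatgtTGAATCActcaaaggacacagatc
F3 and PLAUR hold the letters TGAGTCA, and TFPI2 and SERPINB2 only TGAATCA. A match of letters is a description of the window and not a bound site. On both strands, the EGR letters were found in 2 windows (F3 and TFPI2, 4.72% of all windows) and the SP1 letters in 4 (42.6%). TATAAA was found in 2 (10.7%), GGAATG for TEAD in 1 (11.9%), GGGANTTCC for NF-kB in 1 (1.59%), and CCGGAAG for ETS factors (8.52%) and TGTTTAC for FOXO factors (2.98%) in 0.

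By the fixed rule, the 5 genes most like F3 among the 5013 whose mean signal was 1000 or more were GINS1, AURKA, ZWINT, KIF11 and CDCA7. Likeness was the root mean square difference of centred log2 signals over the 6 libraries, and it was 0.0602 for GINS1 and 0.0874 for CDCA7. With 2 groups of libraries, this measure mostly finds genes with the same fold change. The log2 fold changes of these 5 genes lay between -2.80 for CDCA7 and -2.60 for AURKA. GINS1 acts in DNA replication, and AURKA, ZWINT and KIF11 act in mitosis.

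The inhibitors of the tissue factor step went the other way. TFPI (Entrez gene 7035, chromosome 2, 187464230 to 187554435) had a signal of 2194, 3062 and 2358 with DMSO and 3494, 3676 and 3631 with erlotinib. DMSO library 2 was the highest of its group and still under every erlotinib library. TFPI rose by 0.52 on the log2 scale (95% interval 0.33 to 0.71, adjusted p = 4.2e-05, limma). TFPI2 (Entrez gene 7980, chromosome 7, 93885396 to 93890753), a secreted inhibitor that also acts on plasmin, had a signal of 344, 391 and 377 with DMSO and 516, 529 and 578 with erlotinib. Its groups did not overlap either, and its log2 fold change was 0.54 (95% interval 0.32 to 0.77, adjusted p = 1.6e-04, limma).

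The balance of F3 to TFPI was compared within each library, where the scaling of libraries cancels. The log2 ratio of the F3 signal to the TFPI signal was 3.17, 2.92 and 3.11 with DMSO and -0.15, -0.15 and -0.14 with erlotinib. The difference was -3.21 on the log2 scale, with no overlap. The exact permutation test gave p = 0.10 (two-sided), the smallest value that 3 against 3 libraries allow. Per kilobase of the canonical transcript, F3 was still above TFPI with erlotinib, at 1414 ± 38.9 against 933 ± 24.6 signal per kb (SD, n = 3 each).

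THBD (Entrez gene 7056, chromosome 20, 23045633 to 23049672) fell as well. Its signal was 410, 381 and 537 with DMSO and 134, 158 and 194 with erlotinib. DMSO library 3 stood above the others, and the highest erlotinib library was well under the lowest DMSO library. THBD fell by 1.44 on the log2 scale (95% interval -1.78 to -1.11, adjusted p = 6.8e-08, limma). PROCR, the receptor that presents protein C to the thrombin and thrombomodulin complex, had a signal of 786, 768 and 821 with DMSO and 660, 632 and 534 with erlotinib. It was lower by 0.38 on the log2 scale (log2 fold change -0.38, adjusted p = 0.0018, limma), and the change was -0.20 (adjusted p = 0.078) with libraries scaled to their total count.

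The urokinase gene PLAU (Entrez gene 5328, chromosome 10, 73908832 to 73917494) had a signal of 13800, 16520 and 15770 with DMSO and 13528, 13618 and 14615 with erlotinib. The groups overlapped, because DMSO library 1 lay within the erlotinib range. Its log2 fold change of -0.14 (95% interval -0.29 to 0.01, adjusted p = 0.083, limma) leaves room for a fall of 0.29 but not for one like that of F3. Without DMSO library 1 it was -0.21 (adjusted p = 0.0078), and with libraries scaled to their total count it was 0.041 (adjusted p = 0.63). C10orf55, a long non-coding RNA that overlaps PLAU, had a mean signal of 45.8. How many reads fell on both genes was not measured.

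The urokinase receptor gene PLAUR (Entrez gene 5329, chromosome 19, 43646095 to 43670169) was lower with erlotinib. Its signal was 1260, 1207 and 1354 with DMSO and 756, 679 and 820 with erlotinib, and all 3 erlotinib libraries were below all DMSO libraries. PLAUR fell by 0.76 on the log2 scale (95% interval -0.95 to -0.57, adjusted p = 2.2e-07, limma). The log2 ratio of PLAU to PLAUR within a library was 3.45, 3.77 and 3.54 with DMSO and 4.16, 4.32 and 4.15 with erlotinib. The ratio was higher in every erlotinib library than in any DMSO library, with a difference of 0.62 on the log2 scale (exact permutation p = 0.10, two-sided, the smallest possible).

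PLAT (Entrez gene 5327, chromosome 8, 42174718 to 42207565) was weakly expressed. Its signal was 29.5, 45.5 and 35.3 with DMSO and 73.8, 50.5 and 38.4 with erlotinib. The groups overlapped, since erlotinib library 6 was below DMSO library 2. PLAT had a log2 fold change of 0.52 with a 95% interval from -0.13 to 1.17 (adjusted p = 0.15, limma). It was 0.28 without erlotinib library 4 and 0.74 without erlotinib library 6. The log2 ratio of PLAU to PLAT was 8.69 ± 0.19 with DMSO and 8.03 ± 0.52 with erlotinib (SD, n = 3 each), and these groups overlapped too (exact permutation p = 0.20, two-sided).

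SERPINB2 (Entrez gene 5055, chromosome 18, 63887705 to 63903888) had 2, 1 and 0 reads in the DMSO libraries and 4, 0 and 2 in the erlotinib libraries. It was too low to compare. The ratio of its reads per unit of library was 1.83, with an exact 95% counting interval from 0.391 to 11.3. This interval and the other counting intervals below pool the reads of each group. They cover counting error only and not the spread between libraries. Reads without molecular identifiers are also not independent molecules. Among the other 8 genes of the plasminogen activation list, 4 were tested, with 1 lower, 1 higher and 2 neither. The lower one was SERPINE2, an inhibitor of thrombin and urokinase, with a signal of 182, 155 and 176 with DMSO and 133, 98.0 and 63.7 with erlotinib (log2 fold change -0.85, adjusted p = 0.0019, limma). PLG, the gene of plasminogen, had 0 reads in every library, a count that allows up to 3 reads.

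Both protease-activated receptors among the 10 genes were lower with erlotinib. F2R (Entrez gene 2149, chromosome 5, 76716126 to 76735770) had a signal of 1131, 1233 and 1075 with DMSO and 763, 796 and 825 with erlotinib. F2RL1 (Entrez gene 2150, chromosome 5, 76819030 to 76835315), which lies near F2R on the chromosome and is activated by trypsin-like proteases but not by thrombin, had 4403, 4494 and 4139 with DMSO and 2667, 2684 and 2552 with erlotinib. In both genes the groups were clearly apart. The fold change on the log2 scale was -0.53 for F2R (95% interval -0.71 to -0.35, adjusted p = 1.7e-05) and -0.72 for F2RL1 (95% interval -0.86 to -0.58, adjusted p = 4.9e-09, limma). With libraries scaled to their total count it was -0.35 for F2R (adjusted p = 0.0016) and -0.54 for F2RL1 (adjusted p = 4.8e-07, limma).

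The ratio of F2R to F2RL1 differed little between the groups. Its log2 value was -1.96, -1.86 and -1.94 with DMSO and -1.80, -1.75 and -1.63 with erlotinib, a difference of 0.19 without overlap (exact permutation p = 0.10, two-sided, the smallest possible). Of the other receptors of this family, F2RL3 (PAR4) had a signal of 109, 101 and 101 with DMSO and 115, 147 and 92.7 with erlotinib (adjusted p = 0.48, limma), and F2RL2 had 0 reads in every library.

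**Figure D2:**
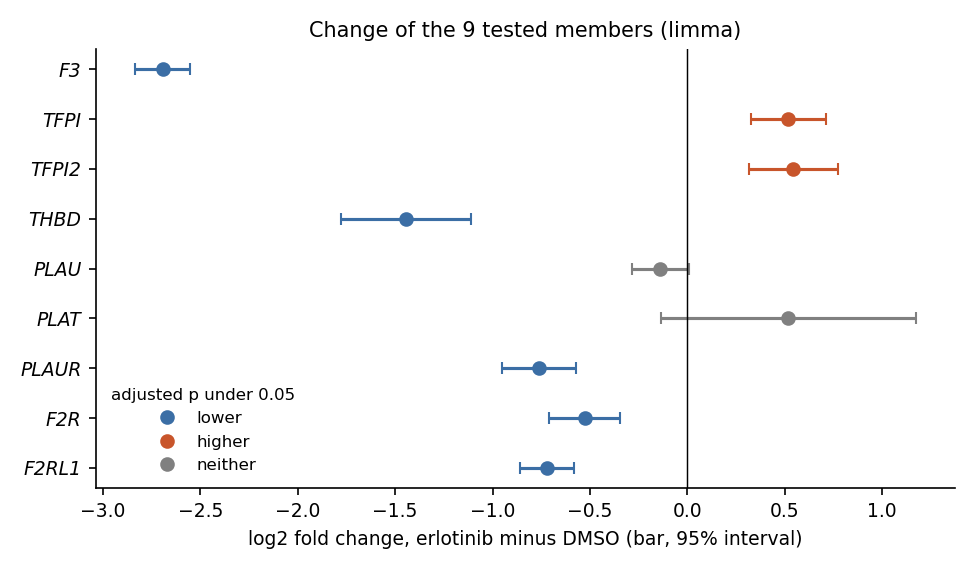
log2 fold change (erlotinib minus DMSO, limma) of the 9 tested genes with its 95% interval, coloured by the call at an adjusted p under 0.05 (blue, lower; orange, higher; grey, neither). The intervals of F3, THBD, PLAUR, F2R and F2RL1 lie below 0, those of TFPI and TFPI2 above it, and those of PLAU and PLAT include it.

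To order the levels of the 10 genes, signal was divided by the length of the canonical GENCODE transcript in kilobases. With DMSO the order from high to low was F3, PLAU, F2RL1, PLAUR, TFPI, F2R, TFPI2, THBD, PLAT and SERPINB2, from 9176 ± 789 signal per kb for F3 to 0.559 ± 0.598 for SERPINB2 (SD, n = 3 each). No neighbours in this order overlapped. With erlotinib PLAU came first with 5941 ± 257 and F3 second with 1414 ± 38.9 signal per kb (SD, n = 3 each). TFPI (933 ± 24.6) and F2RL1 (921 ± 25.1) followed and overlapped, and TFPI2 stood above F2R. The order of the lower genes depends on the length used. With all exons of a gene in place of the canonical transcript, F2R and PLAUR overlapped with DMSO, and F2R stood above TFPI (289 against 217 signal per kb). With erlotinib F2RL1 then stood above TFPI, and PLAUR (169 signal per kb) stood below both TFPI2 (221) and F2R, without overlap.

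**Figure D3:**
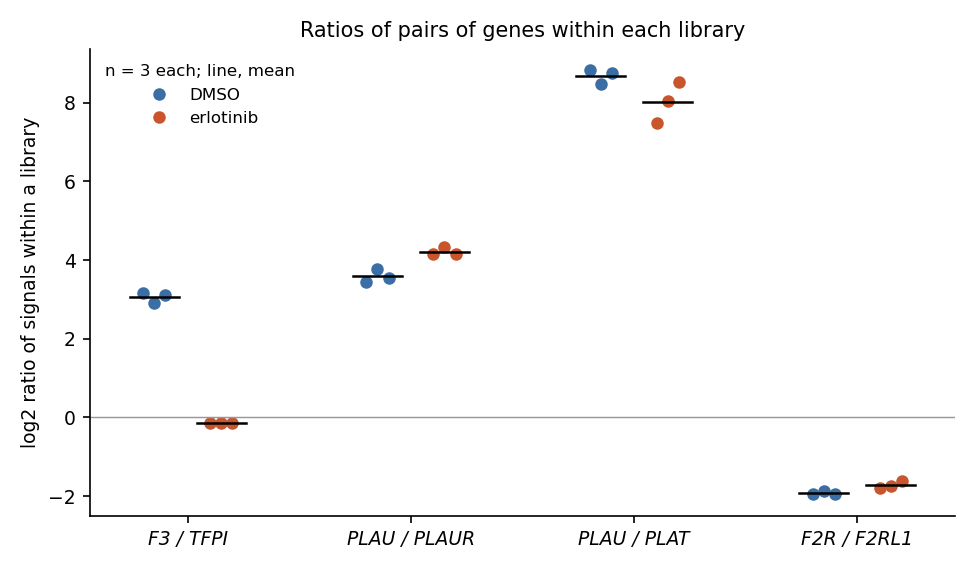
log2 ratio of the signals of 2 genes within each library, for 4 pairs, with 1 point per library (blue, DMSO; orange, erlotinib) and a line at the mean of 3. F3 to TFPI drops from near 3 to just under 0, PLAU to PLAUR is higher with erlotinib, and PLAU to PLAT overlaps.

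The other genes of clotting and fibrinolysis were followed in 7 lists. Outside the 10 genes, the lists hold 69 genes, of which 47 were tested, 19 were lower, 21 higher and 7 neither. For comparison, 35.4% of the whole table tested was lower and 35.3% higher. The higher count includes 7 genes (FGA, FGG, VWF, PROC, PLXDC1, HPN and TMPRSS2) whose DMSO mean was under the minimum of 10, so that only their erlotinib libraries brought them into the test. Among the 40 genes with a mean of at least 10 in both groups, 19 were lower, 14 higher and 7 neither. The median log2 fold change of these 40 genes was -0.14, against 0.017 for all tested genes, and its sign turned, to 0.16, with the 7 genes included. Of the 22 not tested, 11 had 0 reads in every library, among them the liver-made factors F7, F9, F10 and F11.

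Among the coagulation factors other than F3, 7 of 16 were tested, 6 were higher with erlotinib and 0 lower, where 35.3% of all tested genes were higher. FGA, FGG and VWF are 3 of the 6 and were tested only through their erlotinib libraries, so their calls add no support. Of the 4 genes at the minimum in both groups, 3 were higher and 1 neither. Among the genes for the 3 chains of fibrinogen, the protein that thrombin turns into fibrin, only FGB was at the minimum in both groups, and it was higher. FGB had a signal of 211, 171 and 137 with DMSO and 1079, 1166 and 1077 with erlotinib, with every erlotinib library far above every DMSO library (log2 fold change 2.69, adjusted p = 2.3e-13, limma). As a description of these libraries, FGA and FGG had only 10 and 21 reads in the DMSO libraries together, against 272 and 233 with erlotinib. Their reads per unit of library were 24.9 times (exact 95% counting interval 13.3 to 52.5) and 10.1 times (6.49 to 16.7) those with DMSO.

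F8, the cofactor lacking in haemophilia A, had a signal of 89.6, 85.4 and 52.4 with DMSO and 161, 164 and 236 with erlotinib (log2 fold change 1.31, adjusted p = 2.6e-05, limma). VWF, the carrier of factor VIII, had 3, 1 and 7 reads with DMSO and 38, 26 and 23 with erlotinib, 7.24 times as many per unit of library (exact 95% counting interval 3.85 to 15.0). The sixth gene, F5, had a log2 fold change of 0.61 (adjusted p = 0.029, limma), and its adjusted p was 0.052 to 0.15 without DMSO library 1 or 3 or erlotinib library 5 or 6, and 0.063 with no filter on low genes. F12 was the gene that was neither.

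VWF and F8 are typical of endothelial cells, so markers of that cell type are given beside them. Of 9 endothelial markers, 2 had enough signal to test and 0 passed. EGFL7 came nearest, with a signal of 36.3, 35.3 and 53.5 with DMSO and 60.9, 66.3 and 61.8 with erlotinib, without overlap (log2 fold change 0.61, adjusted p = 0.053, limma), and it passed with libraries scaled to their total count (0.78, adjusted p = 0.016). The cells were of 1 line in culture, without endothelium, so the markers describe the RNA of that line. Why F8 and VWF were higher was not tested. The summed signal of the 9 markers was 77.1, 52.9 and 78.1 with DMSO and 87.7, 104 and 106 with erlotinib, led by EGFL7 with a mean of 52.4, so the sum was somewhat higher in each erlotinib library. EMCN and CLDN5 had 0 reads in every library, CDH5 had 10, 0 and 0 reads with DMSO and 11, 8 and 13 with erlotinib, and PECAM1 had 9 to 17 reads in each library. CDH5 had 2.93 times as many reads per unit of library with erlotinib (exact 95% counting interval 1.40 to 6.68), though its libraries overlapped. ESAM had 9, 1 and 5 reads with DMSO and 4, 14 and 18 with erlotinib, which overlapped too. Per unit of library ESAM had 2.20 times as many with erlotinib (exact 95% counting interval 1.17 to 4.32). In the DMSO and erlotinib libraries together, KDR had 0 and 7 reads. PECAM1 had 45 and 33, and TEK and TIE1 had 4 and 3 each. Of 8 fibroblast markers only COL1A1 was tested, and it was higher (log2 fold change 1.47, adjusted p = 6.8e-07, limma). LUM had 2, 4 and 6 reads with DMSO and 10, 10 and 20 with erlotinib, 3.05 times as many per unit of library (exact 95% counting interval 1.57 to 6.39). The other 6 markers overlapped between the groups, COL1A2 and COL3A1 with at most 2 reads in any library and THY1 with 0. Of 8 leukocyte markers, the summed signal was 2927 to 3316 with DMSO and 3345 to 3669 with erlotinib, nearly all from CD68, a lysosomal protein, while PTPRC, which defines leukocytes, had at most 6 reads. Of the 3 tested, CD68 was higher (log2 fold change 0.23, adjusted p = 0.0076, limma). CSF1R (-0.43, adjusted p = 0.055, limma) and CD79A (-1.28, adjusted p = 0.074, limma) were neither. Both were lower without overlap, as were 36.9% of all tested genes. CD79A had a mean signal of 17.8 with DMSO and 8.39 with erlotinib, so only its DMSO libraries brought it into the test. Its groups nearly touched, at 14.9 in DMSO library 2 and 14.8 in erlotinib library 4. ITGAM had 6, 6 and 2 reads with DMSO and 13, 18 and 10 with erlotinib. The 8 epithelial markers were all detected in this carcinoma line, with a summed signal of 258517 to 290718 with DMSO and 198679 to 204110 with erlotinib, led by KRT7. The keratins KRT7, KRT8, KRT18 and KRT19 were lower, while NKX2-1 (log2 fold change 1.53, adjusted p = 5.2e-14, limma) and NAPSA (1.92, adjusted p = 8.4e-15, limma), genes of lung epithelium, were higher, and EPCAM and CDH1 were neither. CDH1 had a log2 fold change of 0.14 (adjusted p = 0.053, limma) and EPCAM one of -0.055 (adjusted p = 0.43). With libraries scaled to their total count, CDH1 passed as higher (0.32, adjusted p = 9.0e-05, limma), and EPCAM was at 0.12 (adjusted p = 0.062).

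**Figure D4:**
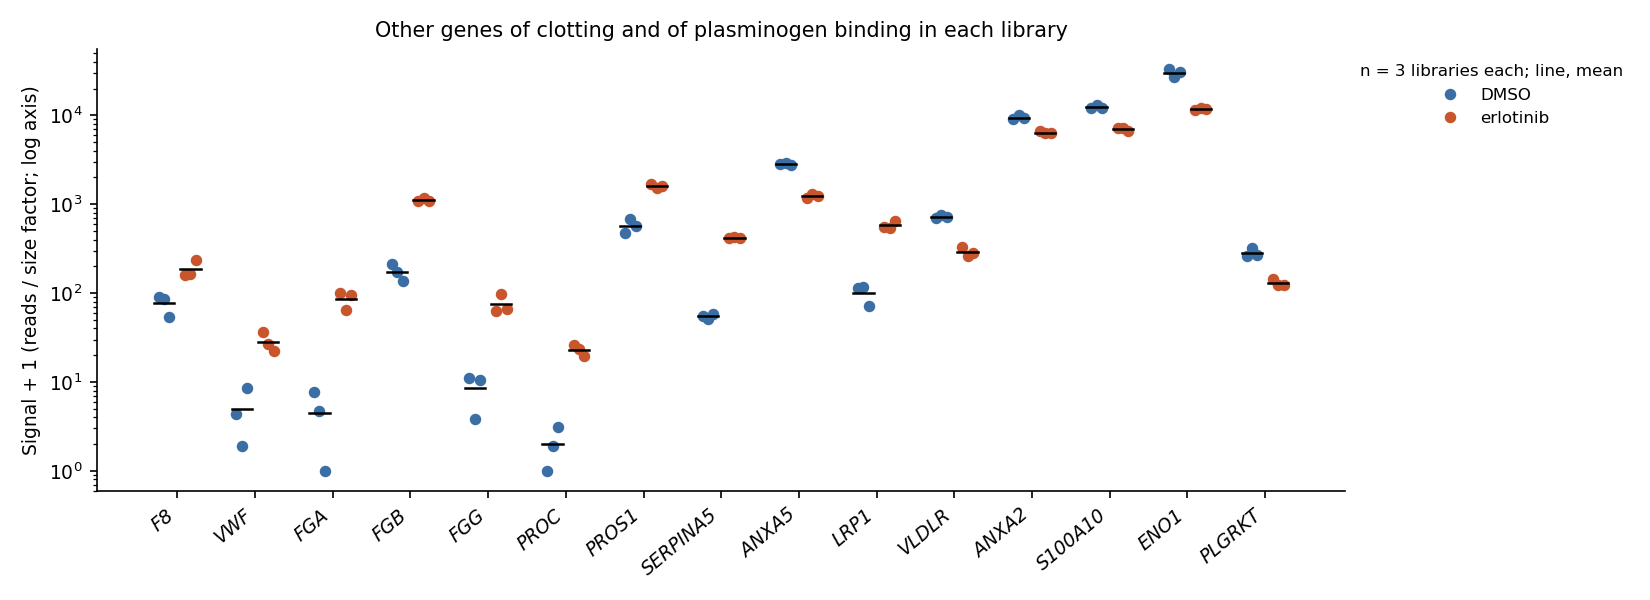
Signal + 1 on a log axis for 15 further genes of clotting, protein C and plasminogen binding, with 1 point per library (blue, DMSO; orange, erlotinib) and a line at the mean of 3. F8, VWF, the fibrinogen genes, PROC, PROS1, SERPINA5 and LRP1 are higher with erlotinib, and ANXA5, VLDLR, ANXA2, S100A10, ENO1 and PLGRKT are lower, and the groups of none of the 15 overlap, which the choice of called genes largely fixes (73.6% of all tested genes do not overlap).

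Among the coagulation inhibitors other than the 10 genes, 6 of 10 were tested, 3 were higher and 2 lower, against 35.3% and 35.4% of all tested genes, and PROC, 1 of the 3, was tested only through its erlotinib libraries. PROS1, the gene of protein S, a cofactor of both protein C and TFPI, had a signal of 467, 685 and 563 with DMSO and 1672, 1531 and 1584 with erlotinib (95% interval of the log2 fold change 1.27 to 1.72, adjusted p = 1.3e-10, limma). SERPINA5, the protein C inhibitor, had 54.5, 50.1 and 57.8 with DMSO and 414, 423 and 420 with erlotinib (log2 fold change 2.93, adjusted p = 1.3e-12, limma). Both genes were higher in every erlotinib library by a wide margin. PROC itself had 0, 1 and 2 reads with DMSO and 27, 23 and 20 with erlotinib, 21.3 times as many per unit of library (exact 95% counting interval 7.01 to 106). ANXA5, which covers the negatively charged lipids that clotting needs, was lower, with 2861, 2945 and 2771 with DMSO and 1184, 1289 and 1245 with erlotinib (log2 fold change -1.21, adjusted p = 5.5e-12, limma). The other lower gene was PROCR.

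The list of plasminogen receptors and clearance receptors holds 11 genes. Of the 10 tested, 6 were lower and 4 higher, PLXDC1 included, where 35.4% of all tested genes were lower and 35.3% higher. Its genes that the naming rule picked moved in both directions. The annexin A2 and S100A10 complex binds plasminogen and tissue plasminogen activator. ANXA2 had a signal of 9450 ± 518 with DMSO and 6400 ± 159 with erlotinib (log2 fold change -0.56, adjusted p = 1.0e-07, limma), and S100A10 had 12455 ± 425 and 6999 ± 333 (-0.83, adjusted p = 2.2e-10, limma; SD, n = 3 each). ENO1, a glycolytic enzyme that also binds plasminogen when on the surface, had 32935, 26685 and 30581 with DMSO and 11447, 12154 and 11826 with erlotinib (log2 fold change -1.34, adjusted p = 8.5e-13, limma). PLGRKT, a plasminogen receptor of the membrane, had a signal of 259, 322 and 268 with DMSO and 142, 123 and 122 with erlotinib (log2 fold change -1.12, adjusted p = 1.6e-06, limma).

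The receptors that take up complexes of proteases and their inhibitors moved in both directions. LRP1, which clears urokinase and tissue plasminogen activator bound to serpins and also TFPI, had a signal of 115, 115 and 70.6 with DMSO and 560, 540 and 645 with erlotinib (log2 fold change 2.56, adjusted p = 3.1e-11, limma). VLDLR, a related receptor, had 701, 752 and 725 with DMSO and 330, 262 and 285 with erlotinib (-1.31, adjusted p = 1.5e-09, limma). MRC2, a collagen receptor that binds the urokinase receptor, had a signal of 94.2, 28.8 and 87.8 with DMSO and 186, 209 and 172 with erlotinib (1.59, adjusted p = 1.0e-04, limma). Without the low DMSO library 2 its log2 fold change was 1.04. PLXDC1 is counted because the list holds it, and no role in binding plasminogen or clearing protease complexes is claimed for it here. It had 15 reads in the DMSO libraries together and 114 with erlotinib. Per unit of library that was 6.95 times as many (exact 95% counting interval 4.04 to 12.8). PLXDC1 was called higher but tested only through its erlotinib libraries. RDM1P5, a pseudogene that overlaps PLXDC1, had a mean signal of 15.3 and 26.6, and without the strand of the counts their reads cannot be told apart. LRPAP1, the chaperone of LRP1, had a log2 fold change of -0.20 (adjusted p = 0.021, limma), which was -0.021 (adjusted p = 0.81) with libraries scaled to their total count, and its adjusted p was 0.073 to 0.12 without DMSO library 1 or erlotinib library 4 or 6. IGF2R, which binds urokinase receptor and plasminogen, had one of 0.21 (adjusted p = 0.023, limma), with an adjusted p of 0.052 to 0.24 without DMSO library 1 or 3 or erlotinib library 6. The log2 fold change of IGF2R was 0.11 without erlotinib library 6, and 0.19 and 0.21 without DMSO library 1 or 3. With libraries scaled to their total count it was 0.39 (adjusted p = 3.1e-04, limma).

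**Figure D5:**
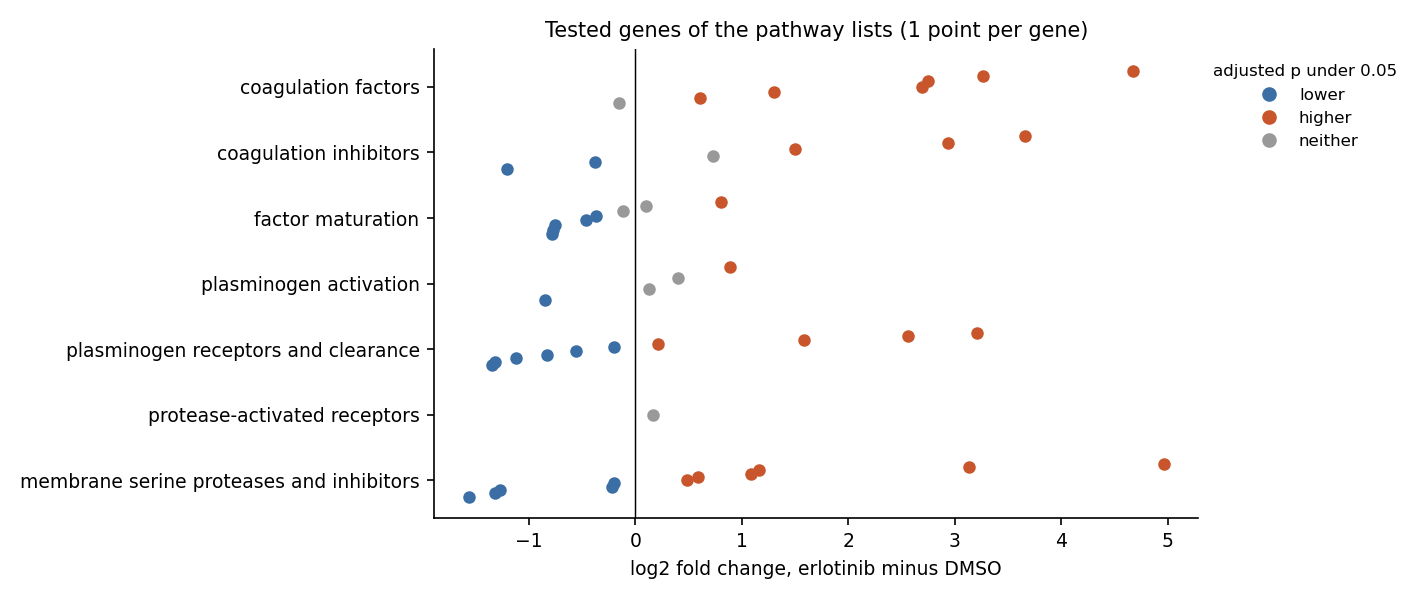
log2 fold change (erlotinib minus DMSO) of the 47 tested genes of the 7 lists other than the 10 genes, with 1 point per gene placed at arbitrary height in its list and coloured by the call (blue, lower; orange, higher; grey, neither). The coagulation factors reach 4.67 for FGA on the higher side, with none lower. FGA is among the genes tested only through their erlotinib libraries. The list of plasminogen receptors and clearance receptors is split between 6 lower and 4 higher genes.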

How the data were processed

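RNA of HCC827 cells was measured in 6 libraries, 3 per condition. Per the submitters' notes, the authors used Bowtie2 2.3.4 on the GRCh38 genome, and featureCounts 1.6.3 for counting. The strand counted is not given in the sources used here. Bowtie2 does not split reads over introns, so junction reads can be lost. In the deposited table, each signal value is a number of reads divided by 1 size factor per library: all values (100%) are whole multiples, within 0.01, of their library's step, and the size factors equal those DESeq2 computes from the recovered reads. DESeq2 1.18.1 is the tool the authors name.

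Erlotinib was compared with DMSO by limma 3.58.1 (variance trend) on log2(signal + 1) in 14215 genes, those whose mean signal was 10 or more, two-sided, with Benjamini-Hochberg adjustment and a threshold of 0.05. A fold change on this scale understates that of low genes. Ratios of genes were tested by exact permutation over libraries. On simulated reads for 13690 genes, limma recovered 190 of 198 changed genes, and 7.77% of its calls were false. Alternatives were DESeq2 1.42.0, edgeR 4.0.16 with TMM or DESeq2-type factors, limma-voom, total-count scaling, no filter, at least 10 reads per library, pseudocounts of 0.1 and 10, a threshold of 0.01, and each library left out. Positions and promoter windows are from RefSeq (GRCh38.p14) and lengths from GENCODE release 44. R was 4.3.3, Python 3.11.15.

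The 10 genes and the lists were chosen with earlier results of these data known. Genes named are the 10, the genes of the clotting, plasminogen and receptor lists that passed with a log2 change of at least 1 or had a mean signal of at least 1000, the 5 genes most like F3, DUSP6, PHLDA1 and EGFR. Other genes of the lists were named after their values were seen.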

Additional observations from a re-analysis of the deposited data

How the results depend on the processing

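The calls of F3, TFPI, TFPI2, THBD, PLAUR, F2R and F2RL1 kept their direction and their side of the threshold under all 15 alternatives run for each gene. F3 had log2 fold changes from -2.74 (without DMSO library 1) to -2.52 (scaled to the total count). Scaling to the total count moved the median of all tested genes to 0.19 and gave 3955 lower and 6156 higher genes in place of 5031 and 5012. It turned PLAU to 0.041, the only change of direction among the 9 tested genes. The number of the 10 genes called lower was 5 or 6 over 16 alternatives, and 2 were higher in each. The other pathway genes called were 15 to 20 lower and 14 to 22 higher. Where each library had to hold 10 reads, FGA, FGG, VWF, PROC, PLXDC1, HPN and TMPRSS2 could not be tested. The ratios kept their direction without any 1 library, with a difference of -3.29 to -3.16 for F3 to TFPI, 0.56 to 0.72 for PLAU to PLAUR, -0.91 to -0.39 for PLAU to PLAT and 0.14 to 0.23 for F2R to F2RL1. No paired analysis was possible because the erlotinib columns of the table carry the numbers 4 to 6, which are not the replicate numbers of the labels. Depth limits SERPINB2, with at most 4 reads in a library, and PLAT, with 26 to 80.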

Other observations

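A list of serine proteases of epithelial cells, at the surface or secreted, and of their inhibitors was split. Several of these proteases can act on F2RL1. Of 14 genes in this list, 11 were tested, 6 were higher with erlotinib and 5 lower, where 35.3% of all tested genes were higher and 35.4% lower. TMPRSS2 and HPN were tested only through their erlotinib libraries, and without them 4 were higher. SPINT1, an inhibitor of matriptase and of the activator of hepatocyte growth factor, had a signal of 2751, 2722 and 3207 with DMSO and 5962, 6159 and 6250 with erlotinib (log2 fold change 1.09, adjusted p = 2.4e-11, limma). PRSS8, the gene of prostasin, a partner of matriptase, had a signal of 1105 ± 105 and 2459 ± 99.8 (SD, n = 3 each; 1.16, adjusted p = 6.9e-11, limma). TMPRSS2 had 4, 8 and 3 reads with DMSO and 190, 185 and 195 with erlotinib, 34.8 times as many per unit of library (exact 95% counting interval 20.9 to 62.5). PRSS22 had a signal of 1525, 1290 and 1801 with DMSO and 2197, 2221 and 1994 with erlotinib (0.49, adjusted p = 1.4e-04, limma), and TMPRSS4 had a signal of 118, 110 and 116 and then 149, 198 and 174 (0.59, adjusted p = 0.0047, limma). HPN, the gene of hepsin, had 10 reads in the DMSO libraries together and 112 with erlotinib. The kallikrein genes KLK6 (log2 fold change -1.32, adjusted p = 2.7e-08, limma) and KLK10 (-1.56, adjusted p = 1.9e-05, limma) and the trypsinogen gene PRSS3 (-1.28, adjusted p = 1.6e-08, limma) were lower, without overlap between the groups. ST14, the gene of matriptase itself, had overlapping groups and a log2 fold change of -0.20 (adjusted p = 0.020, limma), which was -0.019 (adjusted p = 0.82) with libraries scaled to their total count, and its adjusted p was 0.062 to 0.096 without DMSO library 1 or 3 or erlotinib library 4 or 6. SPINT2, an inhibitor related to SPINT1, was lower by 0.22 on the log2 scale (log2 fold change -0.22, adjusted p = 0.0024, limma), and at -0.043 (adjusted p = 0.50) with libraries scaled to their total count.

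A list of 8 genes holds those that finish clotting factors inside the cell. All 8 were tested, 5 were lower, 1 higher and 2 neither, where 35.4% of all tested genes were lower and 35.3% higher. VKORC1, the warfarin target that recycles vitamin K, had a signal of 943 ± 74.8 with DMSO and 558 ± 11.4 with erlotinib (SD, n = 3 each; log2 fold change -0.75, adjusted p = 3.9e-07, limma). MCFD2, which carries factors V and VIII out of the endoplasmic reticulum with LMAN1, had 9470 ± 513 and 5499 ± 20.3 (SD, n = 3 each; -0.78, adjusted p = 5.7e-10, limma). VKORC1L1 (-0.77), LMAN1 (-0.37) and PDIA3 (-0.46) were also lower, and FURIN, a protease that matures many secreted proteins, was higher (0.80, adjusted p = 3.2e-08, limma). With libraries scaled to their total count, LMAN1 was at -0.19 (adjusted p = 0.021, limma) and PDIA3 at -0.28 (adjusted p = 0.0044). GGCX, the vitamin K dependent carboxylase, had 1285 ± 74.1 and 1374 ± 50.7 (SD, n = 3 each; adjusted p = 0.28, limma), and its adjusted p was 0.0044 with libraries scaled to their total count. GGCX shares part of its locus with MAT2A (mean signal 5548 with DMSO and 4101 with erlotinib) and MCFD2 with TTC7A (1789 and 1548), and the strand of the counts is not given.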
